A study of Mus musculus with 8 samples.

Results

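The enzymes of cholesterol and fatty acid synthesis and the proteins that control them were followed as 35 genes chosen by symbol, and all 35 were among the 13708 genes counted. They comprised 19 genes of the sterol branch, 10 of the fatty acid branch, 5 regulators and 1 sterol carrier. Messenger RNA had been sequenced from flow-sorted LSK cells of mouse bone marrow, a gate on Sca-1 and c-Kit that holds the blood stem cells. There were 4 libraries from db/db mice of strain B6.BKS(D)-Leprdb/J, homozygous for the mutated leptin receptor. They were compared with 4 from db/m mice of strain B6.BKS(D)-Leprdb/+, which carry 1 mutated allele, so both groups carry the mutation. All samples were labelled 6 months after diabetes, with age and sex not given in the sources used. The allele is a germline one and not limited to a cell type, so the receptor of LSK cells and of other tissues is affected together. Groups follow the genotype label, because all 8 titles carry the db/m name. Nothing in the labels ties each library to 1 mouse, and p-values therefore measure the spread between these samples.

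Cholesterol is built from acetyl-CoA through mevalonate, farnesyl pyrophosphate, squalene and lanosterol, and fatty acids are built from acetyl-CoA that is carboxylated, joined, elongated and desaturated. Transcription of both branches is driven by the membrane-bound factors SREBP-1 and SREBP-2 (genes Srebf1 and Srebf2). Scap carries them from the endoplasmic reticulum to the Golgi for cleavage when sterols are low, and the Insig proteins hold Scap back when sterols are plentiful. Srebf2 acts mainly on sterol genes and Srebf1 mainly on fatty acid genes. Obese mice that lack leptin itself, a model other than the one used here, are known for high SREBP-1 in the liver.

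Counts on genes were 27640853 to 42806327 per library, and levels are CPM, counts scaled to library size with the trimmed mean of M values (TMM). The sort antigen gene Ly6a (Sca-1) averaged 131 ± 36.1 CPM in db/db and 466 ± 115 CPM in db/m (SD, n = 4 each; adjusted p = 0.0445 by edgeR), and Kit averaged 812 ± 216 CPM in db/db and 658 ± 101 CPM in db/m. Lepr was at 0.412 to 2.66 CPM in db/db and 0.0973 to 1.27 CPM in db/m, and a count per gene does not test for the mutation. The 11 markers of LSK cells summed to 3019 to 3966 CPM in db/db and 2880 to 3623 CPM in db/m. Markers of other cells were summed as well. All 10 plasma cell markers were detected, with a summed level of 1382 to 6260 CPM in db/db and 4255 to 18142 CPM in db/m. The 12 erythroid markers summed to 1766 to 5091 CPM in db/db and 925 to 1233 CPM in db/m. In db/db replicate 2 Car2 alone gave 1634 CPM of a sum of 1962 CPM. The mean log2 CPM of these markers, centred per gene on the 8 libraries, overlapped between the groups. It was -0.73 in db/db replicate 2 and -0.35 in db/m replicate 3. Of 12 stroma and adipocyte markers 9 were in the table (not Plin1, Plin4 and Cidec), with sums of 189.6 to 532 CPM in db/db and 53.4 to 140.4 CPM in db/m. Their centred level overlapped as well, at -0.29 in db/db replicate 2 and 0.09 in db/m replicate 4. The 9 megakaryocyte markers summed to 923 to 2140 CPM in db/db and 385 to 766 CPM in db/m, and the 12 monocyte and macrophage markers to 232 to 4074 CPM in db/db and 789.5 to 1279 CPM in db/m. The 14 cell cycle genes summed to 3423 to 5143 CPM in db/db and 3401 to 5580 CPM in db/m. Intergenic reads were 5.15% to 11.9% of uniquely mapped reads in db/db and 12.2% to 26.5% in db/m. In such bulk samples fewer cells of a type and less RNA per cell cannot be told apart.

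No transcript of the pathway passed the test between the genotypes. The farnesyl pyrophosphate synthase Fdps, the sterol enzymes Mvd and Ebp, the elongase Elovl5 and the desaturase Scd2 had the lowest values in db/db relative to their error, and the desaturase Fads1 the highest. At 0.05 after adjustment, edgeR's quasi-likelihood test called 0 of the 35 genes and 5 of all 13708 (0.0365%). At an unadjusted p under 0.05 there were 6 of 35 (17.1%), against 15.3% of all genes. Of these 6, 5 were lower in db/db (14.3% of the 35), against 7.54% of all genes, and 1 was higher (2.86%), against 7.78%. The 2 groups did not overlap in 3 of 35 genes (8.57%), against 9.03% of all genes, and all 3 were lower in db/db, against 4.53% of all genes. The shares without regard to direction lie near those of the whole table, while the shares of lower genes were above them, a difference that rests on 5 and 3 genes and has no test. The median log2 fold change of db/db over db/m was -0.04 over the 35 genes and 0.01 over all genes, and 14 of the 35 were positive.

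For most genes the error left little room for a large difference. The 95% interval of the log2 fold change lay within -1 to 1, that is within a 2-fold change either way, for 31 of the 35 genes, against 67.5% of all genes. It lay within -0.5 to 0.5 for 19 of them, against 31.6% of all genes. The genes whose interval reached beyond 2-fold were Mvd, Fdps, Acaca and Scd1. Other tests gave a few calls. DESeq2 called Fdps, Ebp and Elovl5 lower, where it called 5.52% of all genes, the likelihood ratio test called Fdps, where it called 4.28%, and limma-voom called none, as it did for all genes. In the authors' deposited table Fdps alone of the 35 had a false discovery rate under 0.05 (0.0350), as did 4.28% of all genes. That table and the likelihood ratio test rest on the same counts and each called 587 genes. They are therefore not separate evidence for Fdps.

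**Figure D1:**
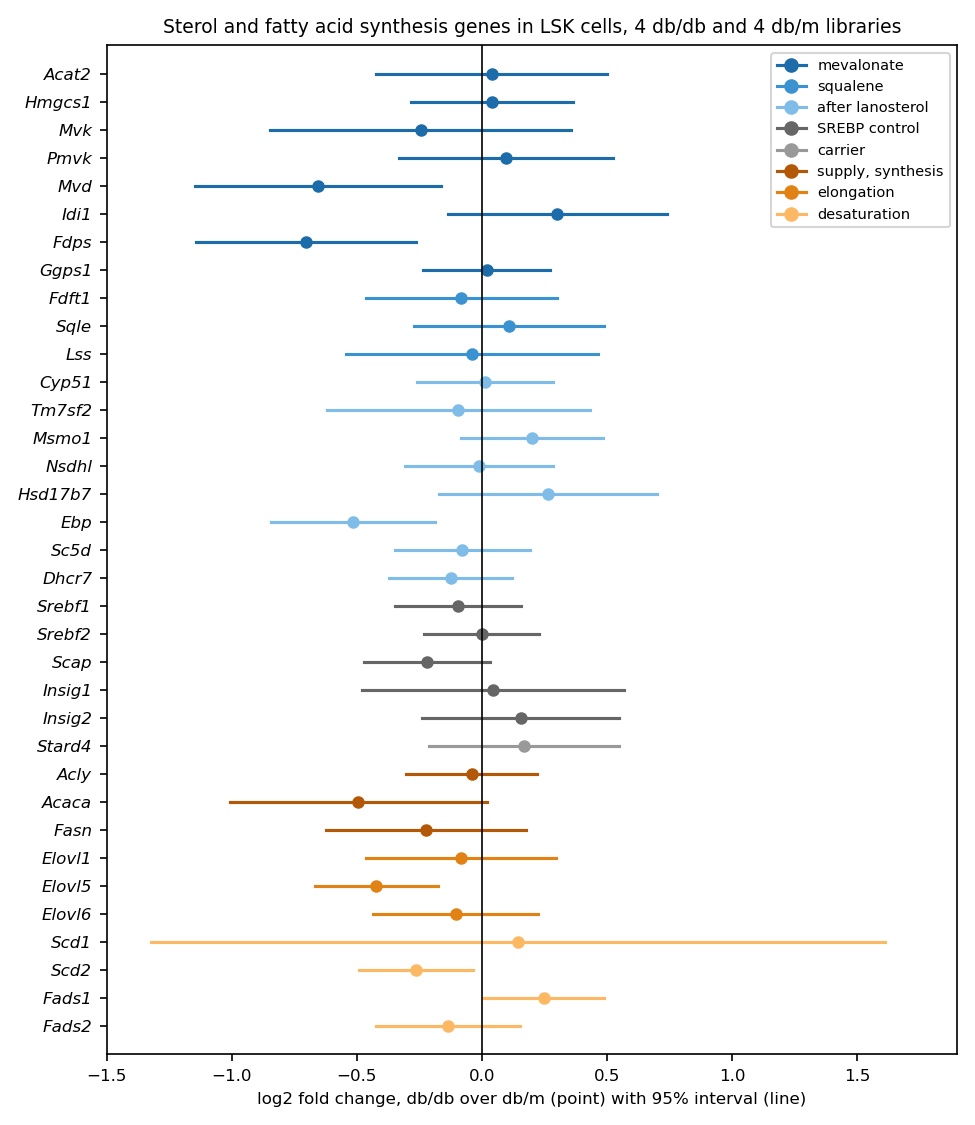
Log2 fold change of db/db over db/m (x axis; points) with its 95% interval (lines) for the 35 genes in pathway order, coloured by step. Most intervals cross 0, those of Fdps, Mvd, Ebp, Elovl5 and Scd2 lie below it, that of Fads1 lies just above it, and that of Scd1 is the widest.

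The early sterol branch makes mevalonate and converts it to farnesyl pyrophosphate. Fdps, the synthase that makes farnesyl pyrophosphate (mm10 chromosome 3, 89093588 to 89101967, minus strand), had the smallest p of this branch. Its levels were 50.4, 42.4, 64.8 and 48.4 CPM in db/db, against 56.1, 82.0, 101.7 and 95.7 CPM in db/m. Only db/db replicate 3 (64.8) and db/m replicate 1 (56.1) crossed, and the other 3 db/m libraries stood above every db/db library. The log2 fold change was -0.70 ± 0.20 (SE), with an unadjusted p of 0.00513 and an adjusted p of 0.135 by edgeR. The plasma cell marker sum was 4255 CPM in db/m replicate 3, against 5215 and 6260 CPM in db/db replicates 3 and 4. Most of it was Jchain, at 3223, 4533 and 5172 CPM in the same order. The mean log2 CPM of these markers, centred per gene on the 8 libraries, ranked the libraries otherwise. It was -0.15 in db/m replicate 3, -0.60 in db/db replicate 3 and 0.06 in db/db replicate 4. Db/m replicate 3 had more Fdps, Mvd, Ebp, Elovl5 and Scd2 than every db/db library. The part of plasma cell, erythroid and megakaryocyte RNA in these differences was not tested.

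Mvd, which decarboxylates mevalonate pyrophosphate (chromosome 8, 122433596 to 122443422, minus strand), was at 9.30, 8.88, 7.08 and 11.3 CPM in db/db, against 12.1, 18.8, 13.4 and 13.2 CPM in db/m. Every db/db library lay below every db/m library. The log2 fold change was -0.66 ± 0.22, with an adjusted p of 0.200 by edgeR. Idi1, the isomerase that makes the second isoprenoid unit used by Fdps (chromosome 13, 8885606 to 8892396, plus strand), ran the other way. It was at 12.8, 15.9, 17.9 and 11.6 CPM in db/db, against 11.3, 13.8, 10.5 and 11.6 CPM in db/m, and the groups overlapped. Its log2 fold change was 0.30 ± 0.20, with an adjusted p of 0.505. Mvd, Idi1 and Fdps act in sequence, and the values before and after Idi1 were below 0 while that of Idi1 was above it.

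The other 5 genes of this stretch had log2 fold changes of -0.24 to 0.10. Hmgcs1, the cytosolic synthase that commits acetyl units to the pathway and a classical SREBP-2 target, averaged 48.3 ± 4.47 CPM in db/db and 47.0 ± 8.61 CPM in db/m. Its log2 fold change was 0.04 with an interval of -0.28 to 0.36. Acat2, the cytosolic thiolase, averaged 38.4 ± 7.34 CPM in db/db and 37.4 ± 9.81 CPM in db/m. Pmvk, the second kinase of mevalonate, averaged 20.4 ± 4.30 CPM in db/db and 19.1 ± 3.12 CPM in db/m. Mvk, the first kinase, averaged 11.7 ± 2.64 CPM in db/db and 13.9 ± 4.89 CPM in db/m, with db/m replicate 4 alone at 21.1 CPM. Ggps1, which extends farnesyl to geranylgeranyl pyrophosphate for protein prenylation, averaged 41.9 ± 0.992 CPM in db/db and 41.4 ± 4.34 CPM in db/m. Ggps1 uses the product of Fdps, and the length-scaled ratio of Fdps to Ggps1, a pair chosen after its values were seen, was 1.65 to 2.57 in db/db and 1.99 to 4.45 in db/m, with overlap.

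Squalene and lanosterol formation showed no difference beyond the spread. Fdft1, which joins 2 farnesyl units to squalene, averaged 33.2 ± 7.85 CPM in db/db and 35.2 ± 3.42 CPM in db/m. Some of these reads cannot be assigned to it, because 773 bases (20.9%) of its exons overlap those of Ctsb on the opposite strand. Antisense reads were 45.2% to 45.7% of coding-exon reads in every library, so reads of the 2 strands were not told apart. Sqle, the epoxidase and a control point of the pathway, was at 62.2, 61.7, 78.2 and 50.8 CPM in db/db, against 47.6, 58.3, 74.7 and 54.1 CPM in db/m. Replicate 3 was the highest in each group, and the log2 fold change was 0.11 ± 0.17. Lss, the cyclase that makes lanosterol, averaged 28.0 ± 7.12 CPM in db/db and 28.8 ± 7.59 CPM in db/m.

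Conversion of lanosterol to cholesterol involved 8 genes, with log2 fold changes of -0.52 to 0.26. Ebp, the isomerase that moves the sterol ring double bond (chromosome X, 8185329 to 8193512, minus strand), was at 42.4, 34.2, 41.9 and 48.05 CPM in db/db, against 47.9, 63.1, 58.8 and 68.4 CPM in db/m. Only db/db replicate 4 and db/m replicate 1 met, at nearly equal levels. Its log2 fold change was -0.52 ± 0.15, with an unadjusted p of 0.00564 and an adjusted p of 0.137 by edgeR. Msmo1, the C4-methyl oxidase (chromosome 8, 64718145 to 64733578, minus strand), was at 38.7, 38.2, 42.1 and 43.1 CPM in db/db, against 41.1, 29.9, 35.2 and 35.03 CPM in db/m. All db/db libraries were above 3 of the db/m libraries, and the log2 fold change was 0.20 ± 0.13 with an adjusted p of 0.495. Hsd17b7, the 3-keto-sterol reductase (chromosome 1, 169949537 to 169969205, minus strand), was at 10.1, 15.2, 11.99 and 10.5 CPM in db/db, against 9.15, 9.64, 10.5 and 10.5 CPM in db/m. Its log2 fold change was 0.26 ± 0.20 with an adjusted p of 0.567, and db/db replicate 2 stood above the rest.

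The remaining late enzymes were close to level. Cyp51, the lanosterol demethylase, averaged 54.1 ± 5.45 CPM in db/db and 53.7 ± 5.74 CPM in db/m. Nsdhl, which acts between Msmo1 and Hsd17b7, averaged 32.3 ± 2.39 CPM in db/db and 32.6 ± 4.05 CPM in db/m. Sc5d, the sterol desaturase, averaged 34.6 ± 3.59 CPM in db/db and 36.5 ± 2.46 CPM in db/m. Dhcr7, the last reductase of one route to cholesterol, averaged 56.8 ± 1.95 CPM in db/db and 61.9 ± 6.91 CPM in db/m. Tm7sf2, a C14 sterol reductase, had the fewest counts of the branch (133 to 262 per library) and averaged 5.29 ± 0.358 CPM in db/db and 5.64 ± 1.06 CPM in db/m. Across the 19 sterol genes 9 log2 fold changes were positive and 10 negative, with a median of -0.01, and the values of Fdps, Mvd and Ebp lay farthest from it.

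**Figure D2:**
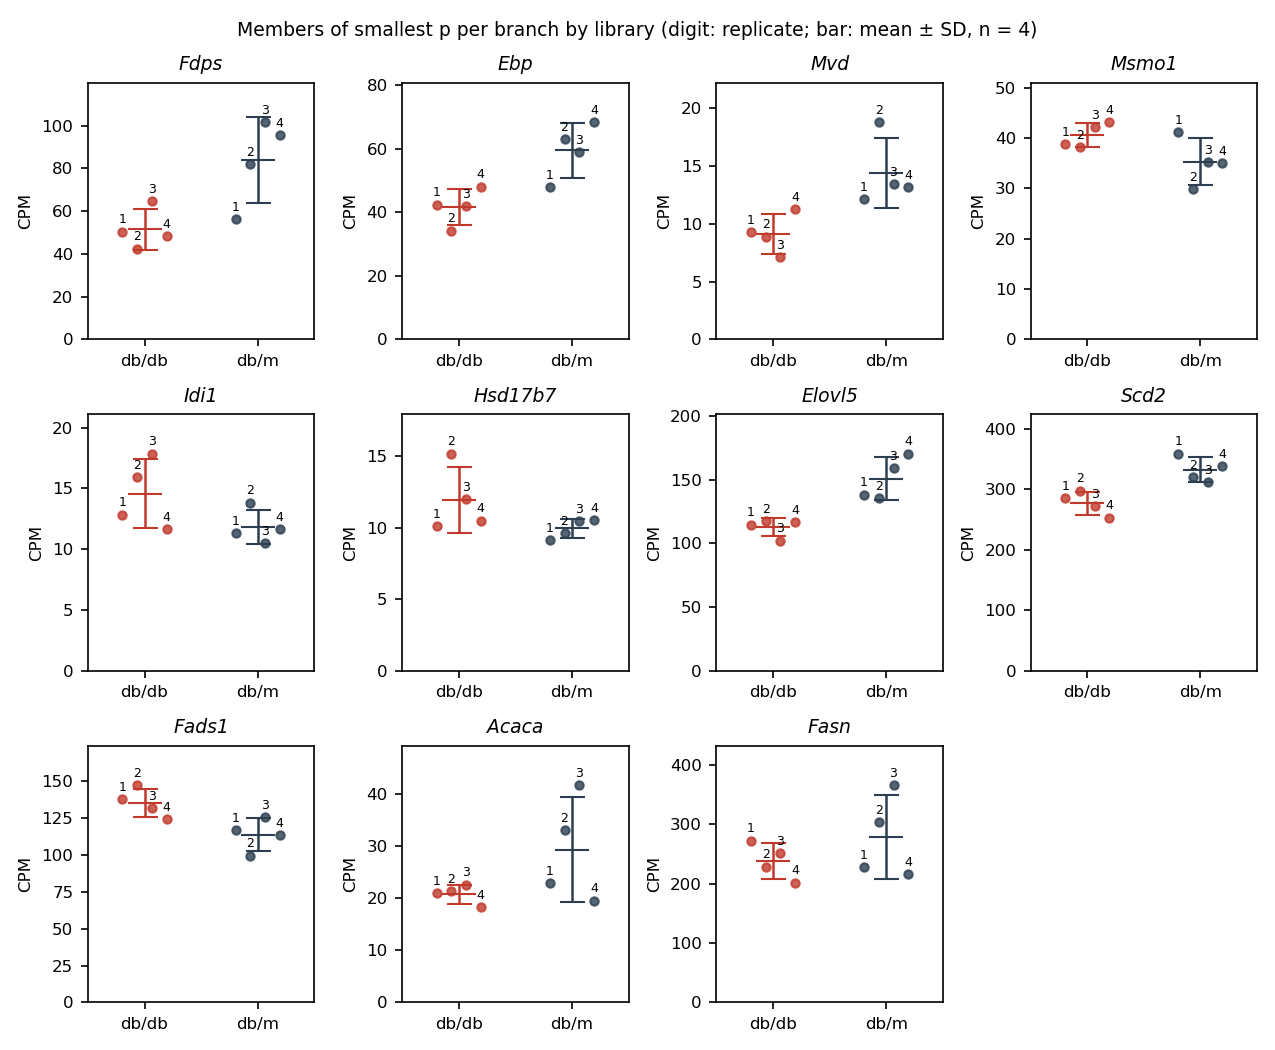
CPM (y axes, from 0) in each db/db library (left, red) and db/m library (right, dark) for the 6 sterol genes and the 5 fatty acid genes of smallest p. Digits are replicates and bars mean ± SD (n = 4). Mvd, Elovl5 and Scd2 separate without overlap, and Fasn and Acaca are highest in db/m replicate 3.

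Promoter letters were read because SREBPs bind a sterol regulatory element and act with the factors of the CCAAT and GC boxes. RefSeq promoters (GRCm38.p6) were matched for 28 of the 35 genes, with 37 annotated starts, and the 250 bases before each start were searched on both strands. Fdps, Fdft1, Sqle, Scd1, Scd2, Fads1 and Stard4 had no match and were not searched. TCACNCCAC, a core form of the sterol regulatory element, was in 1 of 37 windows (2.703%), that of Hmgcs1, and in 1.05% of all 32851 promoter windows. CCAAT was in 23 of 37 (62.2%) and in 33.8% of all windows, and GGGCGG in 26 of 37 (70.3%) and in 32.7% of all. CCAAT was found in 15 of the 16 sterol genes with a promoter and in 3 of the 7 fatty acid genes. The windows of Hmgcs1, with a log2 fold change of 0.04, and of Mvd, Ebp and Elovl5, the 3 matched genes of smallest p, are printed as examples. None of the 35 genes passed the adjusted threshold, so these windows do not contrast genes that did and did not differ. Capitals mark matches to any of the 3 motifs, which do not overlap in these windows, and each is written 5′ to 3′ on the gene's strand and ends at the base before the start.
Hmgcs1: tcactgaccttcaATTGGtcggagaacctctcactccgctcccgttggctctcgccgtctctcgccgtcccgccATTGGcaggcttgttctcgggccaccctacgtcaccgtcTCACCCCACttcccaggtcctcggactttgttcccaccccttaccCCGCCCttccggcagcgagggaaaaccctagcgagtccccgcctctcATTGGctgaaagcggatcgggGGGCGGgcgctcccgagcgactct
Mvd: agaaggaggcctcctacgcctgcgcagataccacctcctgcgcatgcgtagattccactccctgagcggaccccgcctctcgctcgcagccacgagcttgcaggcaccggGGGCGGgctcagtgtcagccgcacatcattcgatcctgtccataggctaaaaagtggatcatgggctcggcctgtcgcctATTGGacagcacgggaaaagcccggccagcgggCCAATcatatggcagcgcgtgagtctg
Ebp: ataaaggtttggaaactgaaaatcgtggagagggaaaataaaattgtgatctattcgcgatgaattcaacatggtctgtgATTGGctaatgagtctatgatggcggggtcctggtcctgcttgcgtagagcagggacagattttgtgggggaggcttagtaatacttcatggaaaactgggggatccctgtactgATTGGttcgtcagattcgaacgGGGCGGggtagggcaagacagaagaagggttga
Elovl5: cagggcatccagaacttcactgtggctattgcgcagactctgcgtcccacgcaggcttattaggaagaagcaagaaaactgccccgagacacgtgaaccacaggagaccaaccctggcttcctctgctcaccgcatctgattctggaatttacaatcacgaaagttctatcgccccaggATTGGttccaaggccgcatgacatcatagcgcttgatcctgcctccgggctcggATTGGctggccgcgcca
In Hmgcs1 (chr13:119690101-119690350, plus strand) the sterol element began 137 bases before the start. In Mvd (chr8:122443423-122443672, minus strand) the CCAAT matches began 60 and 27 bases before it. In Ebp (chrX:8193513-8193762, minus strand) they began 170 and 55 bases before it. In Elovl5 (chr9:77917115-77917364, plus strand) they began 71 and 17 bases before it, and GGGCGG was not in that window. CCAAT stood in each printed window, but it was in 62.2% of the windows of these genes. Its presence in a few chosen windows therefore cannot show whether it relates to the fold changes. These matches are letters in a sequence, not measured binding.

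None of the 5 regulators reached an unadjusted p under 0.05, and the libraries of the 2 genotypes overlapped for each. Srebf2 (chromosome 15, 82147269 to 82204960, plus strand) was at 308, 303, 338 and 332 CPM in db/db, against 340.0, 328, 283 and 331 CPM in db/m. Db/m replicate 3 was the lowest of the 8, and the log2 fold change was -0.0016 ± 0.10 with an interval of -0.23 to 0.23. Srebf1 (chromosome 11, 60199089 to 60220604, minus strand) was at 145, 122, 143 and 128 CPM in db/db, against 133, 157, 156 and 128 CPM in db/m. The groups overlapped, the log2 fold change was -0.10 ± 0.11, with an interval of -0.35 to 0.16. Of its exons 107 bases overlap those of Rai1 on the opposite strand. A count per gene does not separate the Srebf1 transcripts that start from different promoters, and neither gene's count measures protein cleavage.

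Scap (chromosome 9, 110333288 to 110384949, plus strand) was at 163, 141, 160.2 and 142 CPM in db/db, against 158, 174, 205 and 168 CPM in db/m. Of db/m, replicate 1 alone lay below the highest db/db library, and the log2 fold change was -0.22 ± 0.11 with an adjusted p of 0.394 by edgeR. Insig1, itself an SREBP target in many cells (chromosome 5, 28071412 to 28078662, plus strand), was at 40.2, 61.8, 52.6 and 57.5 CPM in db/db, against 66.9, 55.9, 29.4 and 53.8 CPM in db/m. It varied more within db/m than between the groups, with db/m replicates 1 and 3 as the highest and lowest of all, and its log2 fold change was 0.04 ± 0.23. Insig2 (chromosome 1, 121304353 to 121332589, minus strand) was at 34.5, 30.8, 25.4 and 21.6 CPM in db/db, against 26.3, 25.8, 28.1 and 20.5 CPM in db/m. Its log2 fold change was 0.16 ± 0.18, with db/db replicates 1 and 2 above all db/m libraries and db/m replicate 4 below all db/db libraries. Stard4, which carries cholesterol between membranes and is induced through SREBP-2 (chromosome 18, 33201421 to 33213816, minus strand), was at 40.5, 46.8, 37.4 and 37.3 CPM in db/db, against 39.8, 43.5, 25.8 and 34.9 CPM in db/m. Db/m replicate 3 was again the lowest, and the log2 fold change was 0.17 ± 0.17 with an adjusted p of 0.686.

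**Figure D3:**
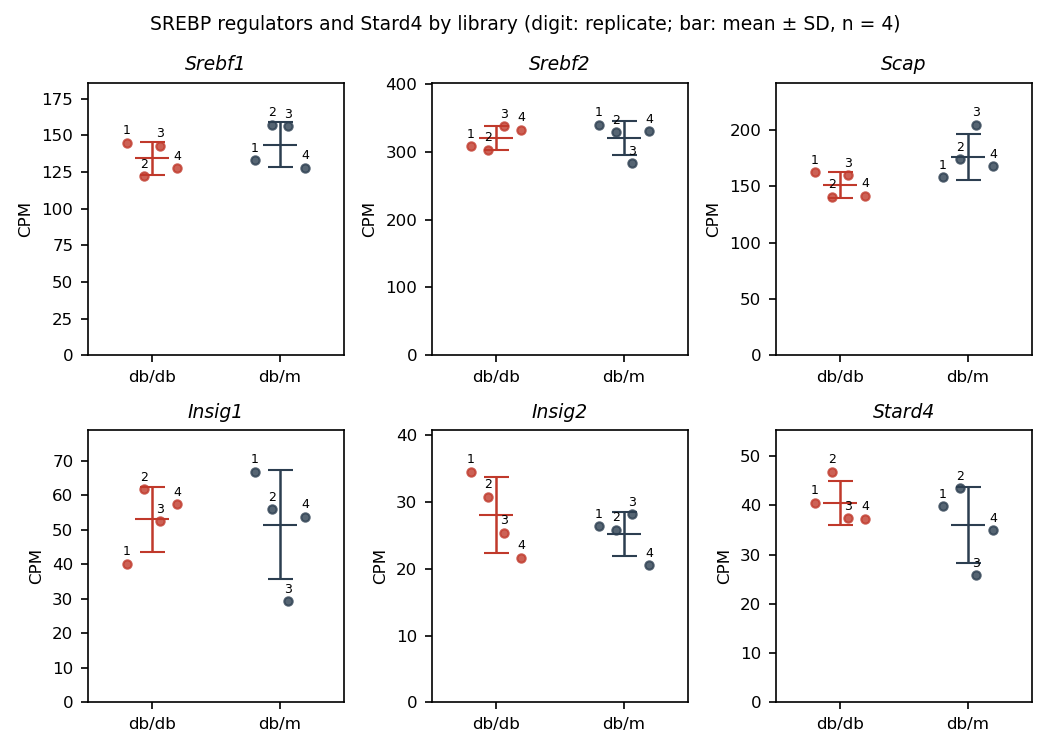
CPM (y axes, from 0) of the 5 SREBP regulators and Stard4 in each db/db library (left, red) and db/m library (right, dark), with replicate digits and mean ± SD (n = 4). The groups overlap in all 6 panels, and db/m replicate 3 is lowest for Srebf2, Insig1 and Stard4 and highest for Scap.

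In the fatty acid branch the supply and synthesis genes varied more within db/m than within db/db. Acly, which splits citrate to acetyl-CoA for both branches, averaged 361 ± 25.0 CPM in db/db and 371 ± 44.5 CPM in db/m. Acaca, the acetyl-CoA carboxylase (chromosome 11, 84195438 to 84401651, plus strand), was at 20.9, 21.3, 22.5 and 18.2 CPM in db/db, against 22.8, 33.0, 41.6 and 19.5 CPM in db/m. The db/db libraries lay close together, db/m replicates 2 and 3 stood above them, and db/m replicate 4 lay among them. The log2 fold change was -0.49 ± 0.23 with an adjusted p of 0.344 by edgeR, and it was -0.28 without db/m replicate 3. Fasn, the fatty acid synthase (chromosome 11, 120805958 to 120824547, minus strand), was at 272, 229, 251 and 201 CPM in db/db, against 228, 304, 366 and 216 CPM in db/m. Its log2 fold change was -0.22 ± 0.18, and -0.07 without db/m replicate 3, which had the most Fasn and also the highest cell cycle level (centred log2 level 0.55).

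Of the elongases, Elovl5 had the smallest p among all 35 genes. It lengthens polyunsaturated fatty acids (chromosome 9, 77917365 to 77984519, plus strand) and was at 115, 117, 102 and 116 CPM in db/db, against 138, 135, 159 and 170.4 CPM in db/m. The groups did not overlap, and the db/db libraries were within a narrow band except replicate 3. The log2 fold change was -0.42 ± 0.11, with an unadjusted p of 0.00333 and an adjusted p of 0.116. Elovl1, which makes very long saturated chains, averaged 94.0 ± 16.2 CPM in db/db and 99.6 ± 21.2 CPM in db/m, and 52 of its exon bases overlap Cdc20 on the opposite strand. Elovl6, which extends palmitate, averaged 41.2 ± 1.17 CPM in db/db and 44.3 ± 8.87 CPM in db/m.

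Desaturases gave values in both directions. Scd2, a stearoyl-CoA desaturase that makes monounsaturated fatty acids (chromosome 19, 44293676 to 44306862, plus strand), was at 285, 298, 272 and 253 CPM in db/db, against 359, 320.3, 312 and 339 CPM in db/m. Every db/db library was below every db/m library, with a log2 fold change of -0.26 ± 0.10 and an adjusted p of 0.262. Its neighbour Scd1 was at 3.30, 1.58, 14.3 and 8.79 CPM in db/db, against 8.63, 10.5, 3.32 and 2.94 CPM in db/m. Each group held both low and high libraries, and the log2 fold change of 0.14 ± 0.66 had an interval of -1.32 to 1.61. Scd1 is abundant in adipocytes. Its highest library, db/db replicate 3, had 1.67 CPM of Adipoq, and db/db replicate 4, with the most Adipoq (4.06 CPM), had 8.79 CPM of Scd1. Adipoq was low in every library (0.324 to 4.06 CPM) and is only 1 of the stroma and adipocyte markers. Others of that list differed from it. Fabp4 (1.72 CPM), Pparg (2.45 CPM) and Lpl (10.2 CPM) were at their lowest of the 8 libraries in db/db replicate 3. Col1a1 (111 CPM) and Col1a2 (109 CPM) were at their highest there. The part of other cells in Scd1 was not tested, and reads from stretches shared by Scd1 and Scd2 may have been counted for either.

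Fads1, the delta-5 desaturase of polyunsaturated fatty acids (chromosome 19, 10182888 to 10196872, plus strand), alone of the 6 genes had higher values in db/db. It was at 138, 147, 132 and 124 CPM in db/db, against 117, 99.5, 126 and 113 CPM in db/m, and only db/db replicate 4 and db/m replicate 3 crossed. The log2 fold change was 0.25 ± 0.11, with an unadjusted p of 0.0430 and an adjusted p of 0.306. Fads2, the delta-6 desaturase encoded next to it, averaged 76.9 ± 10.1 CPM in db/db and 84.4 ± 9.38 CPM in db/m. The length-scaled ratio of Fads1 to Fads2 was 0.652 to 0.851 in db/db and 0.572 to 0.613 in db/m, without overlap, a pair chosen after its values were seen. Elovl5, Fads1 and Fads2 act in the same chain of polyunsaturated fatty acid synthesis, and their log2 fold changes were -0.42, 0.25 and -0.13.

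Setting the branches side by side, the median log2 fold change was -0.12 for the fatty acid branch, with 8 of 10 genes negative, and -0.01 for the sterol branch, with 10 of 19 negative. The mean centred log2 level of the fatty acid branch was -0.09, -0.24, 0.13 and -0.10 in db/db, against 0.06, 0.15, 0.24 and -0.15 in db/m. These means lean on Scd1, a gene of few reads (52 to 590). Its own centred levels ran from -1.70 (db/db replicate 2) to 1.43 (db/db replicate 3), and from -0.83 to 0.98 among db/m libraries. For replicate 3 of db/db, supply and synthesis genes were at -0.01 and elongases at -0.05, against 0.38 for the desaturases, which include Scd1. Replicate 2 of that genotype had -0.13, -0.17 and -0.38 in the same order. That of the sterol branch was -0.06, -0.0548, 0.07 and -0.11 in db/db, against -0.10, 0.07, 0.09 and 0.09 in db/m. Within a library the fatty acid level minus the sterol level was -0.19 to 0.06 in db/db and -0.24 to 0.16 in db/m. With Scd1 included, these ranges overlapped, and the difference between the branches was smaller than the spread between libraries. The share of Scd1 in that spread was not tested. Leaving out db/m replicate 3 gave a fatty acid median of -0.07, and leaving out db/db replicate 3 gave -0.23. Those 2 libraries had the highest cell cycle levels, 0.40 in db/db replicate 3 and 0.55 in db/m replicate 3, and db/m replicate 3 had the highest level of 6 of the 10 fatty acid genes. Other libraries did not follow that order. Db/m replicate 4 had a cell cycle level of 0.26 and a fatty acid level of -0.15, and db/m replicate 2 had -0.27 and 0.15. The part of cell cycling in these levels was not tested.

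**Figure D4:**
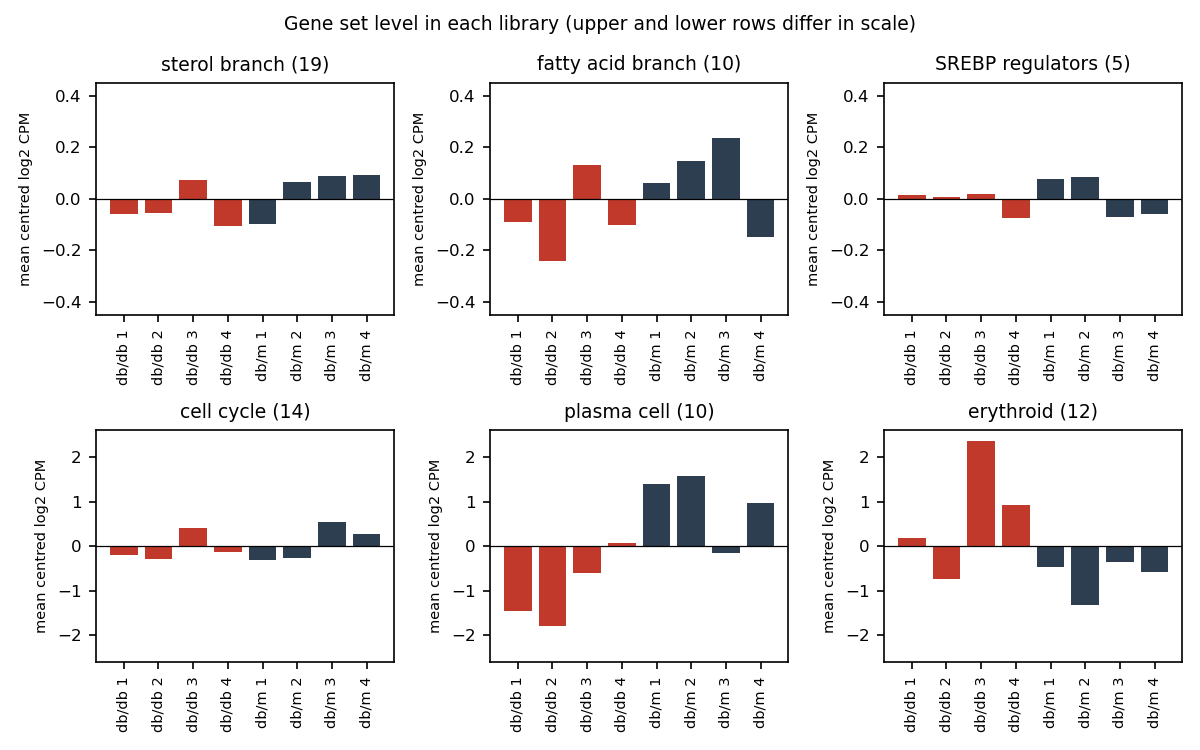
Mean log2 CPM of each gene set, centred on the 8 libraries (y axis), in db/db (red) and db/m (dark) libraries, with a narrower scale in the upper row. Sterol, fatty acid and regulator levels stay within -0.24 to 0.24 in every library, while plasma cell levels run from -1.79 to 1.56 and erythroid levels from -1.32 to 2.36.

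Levels compared between genes were divided by gene length. Averaged over the 8 libraries, Acly (82.7 ± 7.65 CPM per kilobase, SD) and Srebf2 (70.1 ± 4.39) were the highest, with ranges that just met, followed by Scd2 (55.9 ± 6.40), Fads2 (53.5 ± 6.54), Elovl1 (49.9 ± 9.14), Elovl5 (47.4 ± 8.51) and Fdps (46.3 ± 15.5). The ranges of Scd2, Fads2, Elovl1, Elovl5 and Fdps overlapped, so their order is not resolved. That of Srebf2 (62.0 to 74.4) also overlapped those of Scd2, Fads2, Elovl1 and Fdps, so its place above them holds for the means only. At the low end stood Tm7sf2 (3.69 ± 0.513), Acaca (2.77 ± 0.895), Hsd17b7 (2.39 ± 0.415) and Scd1 (1.38 ± 0.936). Among related pairs, length-scaled Srebf2 was 1.70 to 2.45 times Srebf1, Insig1 was 1.16 to 2.96 times Insig2 and Scd2 was 16.9 to 167 times Scd1 in the 8 libraries. Scd2 was above Scd1 in every library of either genotype. Within the fatty acid line Acly was 20.8 to 36.9 times Acaca per length, and Fasn was 7.996 to 11.8 times Acaca.

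**Figure D5:**
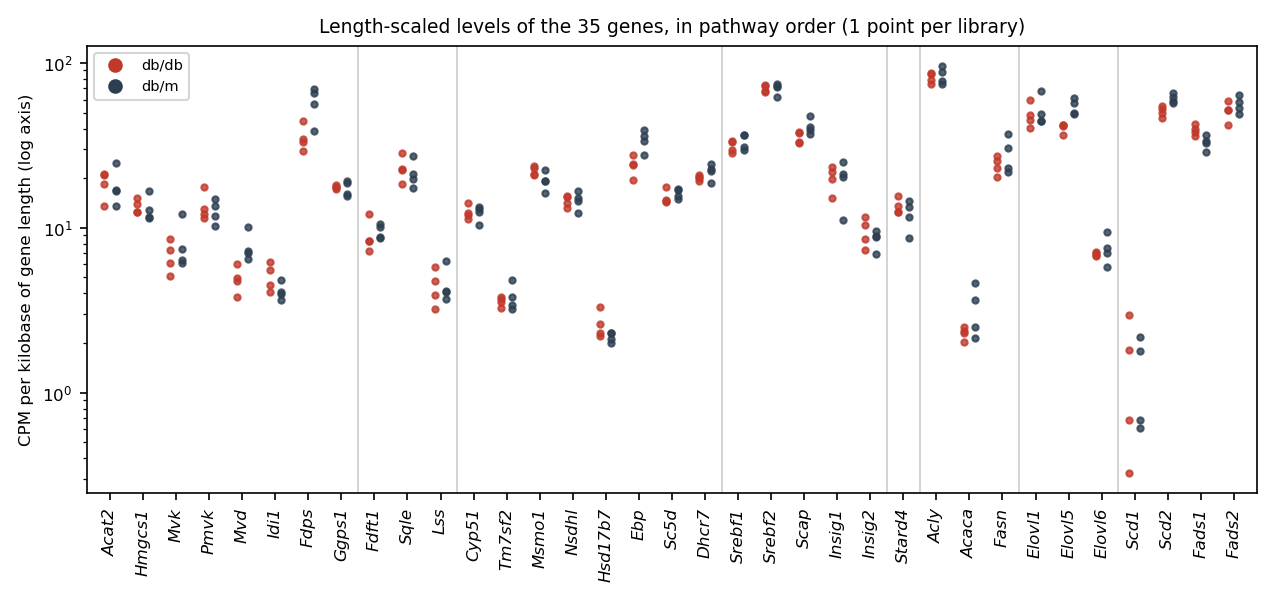
Level of each gene in CPM per kilobase of gene length (log axis) in pathway order, with 1 point per db/db (red, left) and db/m (dark, right) library. Acly and Srebf2 have the highest means and Scd1 has the lowest mean and is the most scattered, and the groups overlap for 32 of the 35 genes.

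Neighbouring genes of lipid metabolism, read from lists, gave 0 calls at the same adjusted threshold of edgeR's test, and their counts at an unadjusted p under 0.05 are given as higher and lower. Over all genes 7.78% were higher and 7.54% lower at that p, 15.3% in all, and the counts of 0 to 3 in these lists of 4 to 10 genes are descriptions, with no test of the list. Sterol synthesis outside the 35 genes gave 1 higher and 0 lower of 4. Por, the reductase that feeds electrons to Cyp51 and Sqle, averaged 294 ± 32.9 CPM in db/db and 222 ± 24.1 CPM in db/m (log2 fold change 0.41, adjusted p = 0.161 by edgeR). SREBP processing gave 0 higher and 2 lower of 10. These were Fbxw7, a ubiquitin ligase subunit that degrades cleaved SREBPs, at 29.8 ± 5.27 CPM in db/db and 44.0 ± 8.49 CPM in db/m, and Erlin1, an endoplasmic reticulum membrane protein, at 69.2 ± 5.58 CPM in db/db and 91.8 ± 15.1 CPM in db/m.

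Among genes of cholesterol uptake and transport, 0 of 10 were higher and 2 lower. Vldlr, a receptor for triglyceride-rich lipoproteins, was at 28.3, 16.7, 16.3 and 23.8 CPM in db/db, against 54.8, 44.5, 114 and 81.4 CPM in db/m. The groups were far apart, with a log2 fold change of -1.80 ± 0.30, though the adjusted p of 0.0797 by edgeR missed the threshold. Npc2, which hands lysosomal cholesterol to Npc1, averaged 122 ± 20.1 CPM in db/db and 152 ± 14.7 CPM in db/m. Efflux genes gave 1 higher and 0 lower of 8. It was Apoe, a lipoprotein component also made by macrophages, at 1671, 1417, 286 and 3317 CPM in db/db, against 759, 560.3, 627 and 637 CPM in db/m. Monocyte and macrophage markers summed to 2189, 1699, 232 and 4074 CPM in the same db/db libraries, in the order of Apoe, and their part was not tested. Nr1h2, the sterol-sensing receptor LXR-beta, averaged 135 ± 7.69 CPM in db/db and 115 ± 16.3 CPM in db/m.

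For users of isoprenoids 0 of 10 were higher and 2 lower. Dhdds, a subunit of the enzyme that lengthens farnesyl pyrophosphate for dolichol, was at 56.9, 45.9, 36.7 and 53.4 CPM in db/db, against 64.6, 96.7, 70.3 and 84.3 CPM in db/m, without overlap (log2 fold change -0.71, adjusted p = 0.108 by edgeR). Coq2, which attaches the isoprenoid tail of coenzyme Q, averaged 91.5 ± 4.35 CPM in db/db and 109 ± 6.49 CPM in db/m. AMP-activated kinase subunits, whose enzyme inhibits Acaca protein by phosphorylation, gave 2 higher and 0 lower of 6. They were Prkaa1, at 65.8, 60.9, 63.2 and 61.1 CPM in db/db against 47.0, 49.5, 52.8 and 45.8 CPM in db/m, and Prkab1, at 92.6, 154, 454 and 166 CPM in db/db against 86.3, 114, 79.4 and 153 CPM in db/m. Prkaa1 did not overlap between the groups, while Prkab1 did. The Prkab1 mean of 217 CPM in db/db rested on replicate 3, the library with the highest erythroid marker sum (5091 CPM), and was 138 CPM without it, against 108 CPM in db/m. The part of erythroid RNA was not tested. In the elongation cycle and other desaturases 2 of 10 were higher and 1 lower, with Fads3 at 16.7 ± 3.66 CPM in db/db and 28.0 ± 7.29 CPM in db/m and Hacd4, a 3-hydroxyacyl-CoA dehydratase, at 51.3 ± 19.2 CPM in db/db and 27.6 ± 5.60 CPM in db/m. Fatty acid supply gave 0 of 7 in either direction, and its smallest p were those of Acss2, which makes acetyl-CoA from acetate, at 67.0 ± 12.5 CPM in db/db and 51.4 ± 9.56 CPM in db/m, and of Mlxip, a glucose-responsive factor, at 83.6 ± 6.32 CPM in db/db and 69.4 ± 12.8 CPM in db/m.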

How the data were processed

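Polyadenylated RNA of 8 LSK samples was read from 1 deposited table. Per the submitters' processing notes, STAR 2.7.10a, the mm10 build and featureCounts of Subread 2.0.3 were used, with an annotation and strand setting not given in the sources used here. FastQC 0.11.5 and edgeR 3.40.2 are listed in these notes as well. The authors deposited raw read counts per gene with no normalization, log2 CPM values (matched by TMM log2 CPM here to within 4.97e-14) and log2 fold changes, p-values and false discovery rates of their own comparison. No gene was removed by filterByExpr, and counts were tested in R 4.3.3 with edgeR 4.0.16: TMM scaling, a quasi-likelihood fit of genotype without covariates, Benjamini-Hochberg adjustment over all 13708 genes and a threshold of 0.05. Intervals are 95% from the test's SE and degrees of freedom. Date-like symbols stood in 21 rows, none of them among the 35 genes. The test was checked on simulated data with 200 changed genes. Every pair of libraries differed beyond sampling noise (chi-square per gene at least 48.2). Intergenic percentages come from the deposited mapping table.

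The 35 genes, the lists and the tests were chosen with earlier results of these data known, so no list has a test of its own. Branch medians and levels (mean log2 CPM, centred per gene on the 8 libraries, with a prior count of 2) are descriptions. Values in every library are given for the 6 sterol and 5 fatty acid genes of smallest p, the 5 regulators and Stard4, and up to 2 genes of smallest p are named per pathway list, some list genes not being reported here; Sqle and Scd1 in every library were added after their values were seen. Alternatives were RLE and upper-quartile scaling, 2 filters (none, or at least 1 CPM in 4 libraries), DESeq2 1.42.0, limma-voom (limma 3.58.1) with and without quality weights, the likelihood ratio test, a correlated block by title prefix, 1 surrogate variable (sva 3.50.0), 3 libraries against 3 (without replicate 3 of each), and the omission of each library. Means of pathway list genes without each library were added after seeing the data. Each title prefix occurs in 1 genotype only, so prefix and genotype cannot be told apart in full.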

Additional observations from a re-analysis of the deposited data

Results flagged for a closer look

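In 74 groups of 4 libraries (35 genes and 2 branch levels in each genotype) a library was set apart when its gap to the nearest other exceeded Dixon's 95% critical value, which chance does in about 1 of 20 groups. This held for 4. Elovl5 was at 102 CPM in db/db replicate 3, below 115 to 117 CPM in the other db/db libraries. Sc5d was at 39.9 CPM in db/db replicate 2, above 32.3 to 33.1 CPM in the other db/db libraries. Lss was at 40.1 CPM in db/m replicate 2, above 23.4 to 26.2 CPM in the other db/m libraries. The sterol branch level was -0.0981 in db/m replicate 1, below 0.07 to 0.09 in the other db/m libraries.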

How the results depend on the processing

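None of the 35 genes passed the threshold in any fit but DESeq2 (3: Fdps, Ebp and Elovl5, with log2 fold changes of -0.71, -0.52 and -0.43) and the likelihood ratio test (1: Fdps, -0.70). The sterol median ran from -0.03 to 0.04 over the alternatives with all libraries or 3 against 3, changing sign, and the fatty acid median from -0.16 to -0.08. Leaving out each library gave sterol medians of -0.06 to 0.01, fatty acid medians of -0.23 to -0.07, 0 to 0 calls among the 35 genes and 0 to 90 calls over all genes, against 5 with all libraries (90 without db/m replicate 3, 46 without db/db replicate 4, 2 without db/m replicate 1 and 0 without each of the others). Calls over all genes were 0 with upper-quartile scaling, 0 with limma-voom, 192 with quality weights, 757 with DESeq2, 587 with the likelihood ratio test, 14 with the title prefix block, 1 with the surrogate variable and 195 with 3 against 3. Values near 0 changed sign: Srebf2 was 0.020 with upper-quartile scaling, 0.0013 with the 1 CPM filter, 0.00051 with limma-voom, 0.0015 with the prefix block and -0.066 to 0.028 without 1 library, and Insig1 was -0.0072 with quality weights, -0.039 with the surrogate variable, -0.15 with 3 against 3 and -0.16 to 0.19 without 1 library. The cause of these shifts was not tested. The other 15 of the 17 genes recomputed singly (6 sterol, 5 fatty acid, 5 regulators and Stard4) kept their direction in every alternative, and of all 35 genes 28 to 35 did, with 28 in 3 against 3 and without db/m replicate 3. No paired analysis was possible because replicate numbers follow accession order and each title prefix occurs in 1 genotype. Low counts limit Scd1 (52 to 590 reads) and Tm7sf2 (133 to 262), and 4 libraries per group limit all intervals.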
